A study of Mus musculus with 4 samples.

Results

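U1 is the small nuclear RNA (snRNA) that base-pairs with the 5' splice site at the start of spliceosome assembly. In the mouse genome it is annotated as many copies, a few of them working genes and most of them scattered variants or pseudogenes. All rows with biotype snRNA and the name U1 were taken, which gave 77 of the 7569 transcripts of the immunoprecipitate table and 49 of the 12883 genes of the input table. The rule uses only the annotated biotype and name.

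The data come from liver biopsies of wild-type and Fto knockout mice, both on a C57/Bl6 background. Total RNA was measured by miCLIP, in which an antibody against methylated adenosine is crosslinked to RNA and the bound fragments are cloned, and the matching input RNA was measured beside it. There are 4 labelled samples, 1 for each group: the wild-type 6mA-IP, the wild-type input, the Fto knockout 6mA-IP and the Fto knockout input, each stated to hold 3 replicates. What the labels do not give is the sex or age of the mice, the cells in which Fto was deleted, or whether replicates were separate animals. Hepatocyte markers were present: all 10 listed genes were measured in both tables, and they held 7.45% of the summed input means. Fto itself, a demethylase of methylated adenosines in RNA, was the input gene with the lowest p, at a log2 fold change of −1.49 with SE 0.27 (adjusted p = 3.52e-04) per the authors' deposited table.

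U1 RNA is made by RNA polymerase II and starts with a cap followed by an adenosine. In the cytoplasm a ring of Sm proteins is loaded onto it and its cap is converted to trimethylguanosine, and it then returns to the nucleus. The adenosine next to the cap carries a methyl group on its ribose and can carry another on its base, and the form with both, m6Am, is bound by antibodies raised against methylated adenosine. The series title names FTO as the enzyme that controls this reversible methylation during snRNA biogenesis. U6 is a natural contrast within the same RNA class, since it is made by RNA polymerase III, has another cap and lacks the Sm ring.

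The tables hold the authors' comparisons and no values of single libraries, so each copy is described by 1 mean, 1 fold change and 1 standard error. Means are averages of normalized counts over the libraries. Neither header names the direction of a fold change. Because the Fto value is negative in the input, signs there were taken as knockout over wild type, and the immunoprecipitate was taken in the same way without a check of its own. The sources used here do not say which contrast the immunoprecipitate fold change stands for, so every sign and size from that table carries this limit. Copies of U1 can be alike in sequence, and how alike these copies are was not examined. Reads could be split or repeated among them by the authors' counting, so the value of a single copy is uncertain.

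The U1 signal of the immunoprecipitate was large and sat on few copies. In the authors' deposited table the 77 copies together held 42.9% of all summed means and 77.8% of the summed means of snRNA. Of the 10 highest means in that table, 7 belonged to U1, and the most abundant copy ranked first among all 7569 features. The means of the copies ran from 0.120 to 34539, a range of 288326-fold. The top 3 copies held 41.2% of the summed U1 mean, the top 10 held 83.7% and the top 16 held 95.6%. At the other end 25 copies had a mean under 10 and held 0.018% of all summed means between them.

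In the input the U1 rows were a minor and more even signal. The genes with U1 names of their own in RefSeq, Rnu1a1, Rnu1b1, Rnu1b2 and Rnu1b6, were not among these rows. The values therefore describe the other annotated copies only. The lowest mean of any input gene was 1.09, which narrows the range that the copies could span. The 49 copies held 0.063% of all summed means, and 60.5% of the summed snRNA means, per the authors' deposited table. Their means ran from 1.26 to 107, and the top 10 copies held 59.9% of the sum. The tables count by transcript and by gene and were normalized separately, so these shares describe each table and give no enrichment by the antibody.

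**Figure D1:**
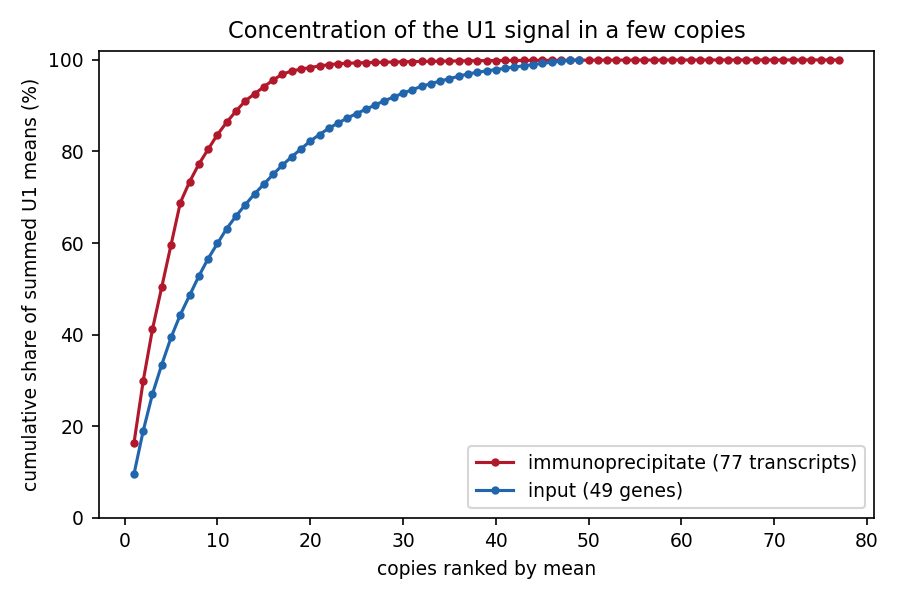
Cumulative share of the summed U1 means (vertical axis, percent) against the copies ranked from the highest mean (horizontal axis), for the 77 transcripts of the immunoprecipitate and the 49 genes of the input. At 10 copies the immunoprecipitate curve stands at 83.7% and the input curve at 59.9%.

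Some rows repeat each other's values, which shows how far the copies can be counted as separate. With limits of 1% in the mean and 0.05 in log2 fold change, the 77 rows formed 74 groups. A trio of copies, ENSMUST00000093684, ENSMUST00000101973 and ENSMUST00000082761, had means of 19557, 19552 and 19547 and log2 fold changes of 4.03, 4.02 and 4.02 per the authors' deposited table. Whether they hold the same reads was not tested. A pair had means of 3226 and 3210 with fold changes of 3.84 and 3.88 per the authors' deposited table. With wider limits of 5% and 0.2 the rows formed 69 groups. With each near-identical U1 group at the narrower limits counted 1 time, in the U1 sum and in the total, U1 held 37.6% of the summed means of the immunoprecipitate.

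Nearly all U1 copies had a positive fold change in the immunoprecipitate. Of the 77 copies 74 lay above 0, with a median log2 fold change of 3.88 over all of them, where 29.5% of all features lay above 0 and the median feature stood at −1.59, from the authors' deposited table. Weighted by mean, the U1 log2 fold change was 3.99, which is 15.9-fold, so the abundant copies and the typical copy gave nearly the same value. All 52 copies with a mean of at least 10 were positive, against 34.8% of all such features. Read as knockout over wild type within the immunoprecipitate, U1 values were higher without Fto. No comparison with the input was made here, and whether the authors' contrast involves the input is not given. By the authors' adjusted p, 19 copies were called with a positive change and none with a negative one. Of all tested features 0.895% were called positive and 4.69% in either direction. The direction of a call is the sign of the printed fold change. The p-value of the immunoprecipitate did not test fold over standard error, as described below, so the call itself does not test that sign. An unadjusted p under 0.05 with a positive change was reached by 34 copies, against 1.88% of all features with a p. The 56 copies with an adjusted p are those the authors adjusted, and the other 21 had a p-value only. Among all deposited features the positive calls numbered 21, so U1 supplied 90.5% of them. The other 2 were a U5 copy and the U4atac copy, and positive calls outside snRNA numbered 0.

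The most abundant copy, ENSMUST00000083009, had a mean of 34539, and its log2 fold change was 4.50 with SE 0.49 (adjusted p = 0.00333) per the authors' deposited table. That is 22.6-fold, with a 95% interval from 11.6 to 43.9. The second, ENSMUST00000083435, stood at 3.75 (SE 0.54, adjusted p = 0.00333) with a mean of 28929 per the authors' deposited table. The third, ENSMUST00000084007, stood at 4.08 (SE 0.55, adjusted p = 0.0107) with a mean of 24005 per the authors' deposited table. The 95% intervals of these fold changes overlap. The copies share libraries, so overlap is no test of a difference, and differences between the leading copies were not tested.

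Below these came the near-identical trio, all called with adjusted p between 0.0457 and 0.0477 per the authors' deposited table. Copies 7 and 8 by mean, ENSMUST00000083241 and ENSMUST00000083162, stood at 3.24 (SE 0.59) and 4.03 (SE 0.68), both called, per the authors' deposited table. The ninth, ENSMUST00000083947, had a mean of 6893 and a fold change of 4.12 (SE 0.70) and was the most abundant copy that was not called (adjusted p = 0.106) per the authors' deposited table. The tenth, ENSMUST00000082955, with a mean of 6785 and nearly the same fold change of 3.99 (SE 0.73), was called (adjusted p = 0.0465) per the authors' deposited table. A similar size thus fell on both sides of the threshold.

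Calls were most frequent among abundant copies, while the fold changes showed no steady trend with the mean. All 6 copies with a mean of at least 10000 were called, as were 8 of 12 between 1000 and 10000, by the authors' adjusted p. By the same p 1 of 9 was called between 100 and 1000 and 4 of 25 between 10 and 100. Of the 1571 features with a mean of at least 10 and an adjusted p, 21 were called positive and 77 negative. The share of all features called within each bin is not given here, so the bins are not read against a background. The called copy with the lowest mean was ENSMUST00000082617, at a mean of 16.1 and a fold change of 4.47 (SE 0.94, adjusted p = 0.0309) per the authors' deposited table. Below 10 only 4 of the 25 copies had an adjusted p, and none of these 4 was called. The median log2 fold changes of these bins were 4.03, 3.88, 3.28, 4.07 and 3.59 per the authors' deposited table. The median standard errors rose along the bins, at 0.61, 0.65, 0.78, 1.10 and 2.43 per the authors' deposited table. The share called did not fall steadily as the standard error rose, with 1 of 9 called at 0.78 and 4 of 25 at 1.10. Whether the standard error accounts for the calls was not tested. Across the 52 copies with a mean of at least 10, Spearman's rho of mean was −0.83 with the standard error and −0.12 with the fold change. This is a description over copies that share libraries and reads.

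**Figure D2:**
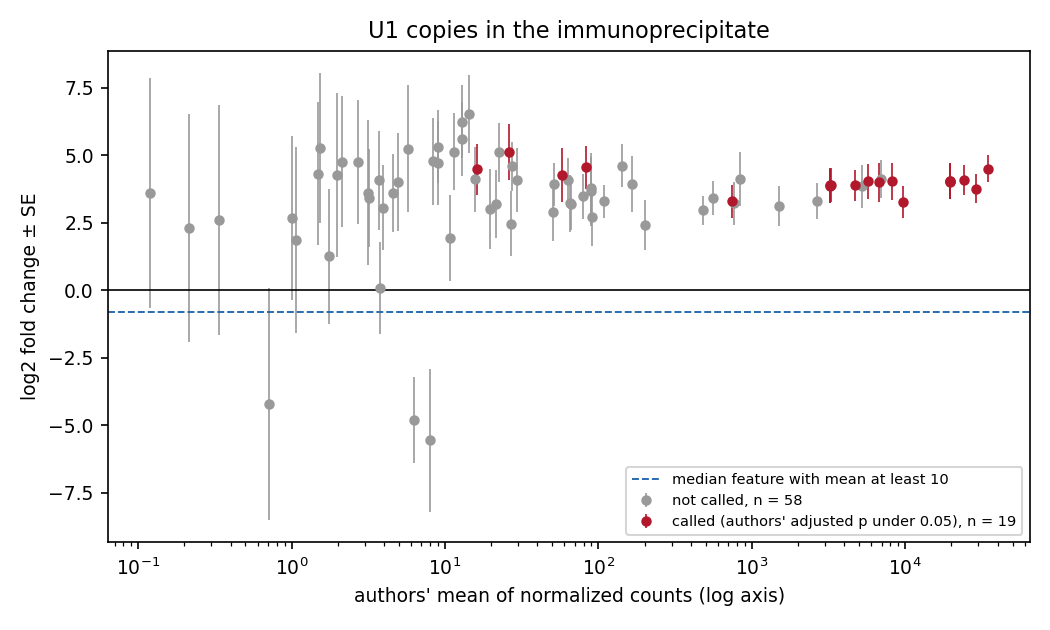
Log2 fold change (vertical axis, with SE bars) of each of the 77 U1 copies in the immunoprecipitate against the authors' mean of normalized counts (horizontal log axis); red copies are the 19 called and the dashed line is the median of all features with a mean of at least 10, at −0.82. Above a mean of 1000 all 18 copies lie between 3 and 4.6, and the bars widen towards low means.

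Most copies had a 95% interval that held the mean-weighted U1 value. That value is made from these same copies, which share libraries, so this describes their spread and does not test a common fold change. Of the 52 copies with a mean of at least 10, 51 had a 95% interval that held the weighted value of 3.99, and 51 had an interval wholly above 0. For all 18 copies with a mean of at least 1000 the lower bound of the interval was at least 3.17-fold. The exception at abundance was ENSMUST00000083084, with a mean of 481 and a fold change of 2.95 (SE 0.53) per the authors' deposited table, whose interval ended at 3.98.

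Most of the extremes lay on copies with low means. The 3 highest fold changes among copies with a mean of at least 10 were 6.52 (SE 1.43), 6.23 (SE 1.34) and 5.60 (SE 1.37), at means of 14.3, 12.8 and 12.8 per the authors' deposited table, and none of them was called. The lowest 3 were 1.94 (SE 1.59), 2.41 (SE 0.94) and 2.45 (SE 1.20), at means of 10.8, 201 and 26.8 per the authors' deposited table. Only 3 copies were negative, at −5.56 (SE 2.65), −4.82 (SE 1.59) and −4.23 (SE 4.29) with means of 7.92, 6.24 and 0.712 per the authors' deposited table. The first of these was not called (adjusted p = 0.316), the other 2 had no authors' adjusted p and so could not be called, and all were singled out after their values were seen.

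The authors' p-value in the immunoprecipitate did not test the printed fold change in the Wald form, and the U1 copies show this plainly. The statistic there matched a chi-square variable with 1 degree of freedom, and for 50 of the 52 copies with a mean of at least 10 it lay below the square of fold change over standard error. The median of statistic over squared ratio was 0.276. ENSMUST00000082660, with a mean of 142, stood at 4.61 (SE 0.78), a ratio of 5.89, and yet had p = 0.608 per the authors' deposited table. ENSMUST00000082578 and ENSMUST00000082773 stood at 3.19 (SE 0.97) and 3.21 (SE 1.05) with p = 0.739 and 0.695 per the authors' deposited table. The copy with the lowest p went the other way: ENSMUST00000083111, with a mean of only 58.0 and a fold change of 4.27, which is 4.25 standard errors, had p = 4.7e-06 (adjusted p = 9.93e-04) per the authors' deposited table.

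Calls made from fold over standard error, adjusted over all 7569 features, therefore gave another count. They took in 48 U1 copies as positive, against 2.81% of all features called positive by this rule. They took in 1 as negative, ENSMUST00000083145 at −4.82 (adjusted p = 0.0294 from fold over standard error), against 8.01% of all features called negative. All 19 copies called by the authors were among them, and 13 more with a mean of at least 10 had an authors' p of 0.05 or above. Adjusting the authors' p over all deposited features with a p-value left 4 U1 copies, the 3 most abundant and ENSMUST00000083111. The share of all features left by that adjustment is not given here. Within the authors' own calls 10 of the 19 had an adjusted p of 0.03 or more, and 4 further copies lay between 0.05 and 0.1.

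**Figure D3:**
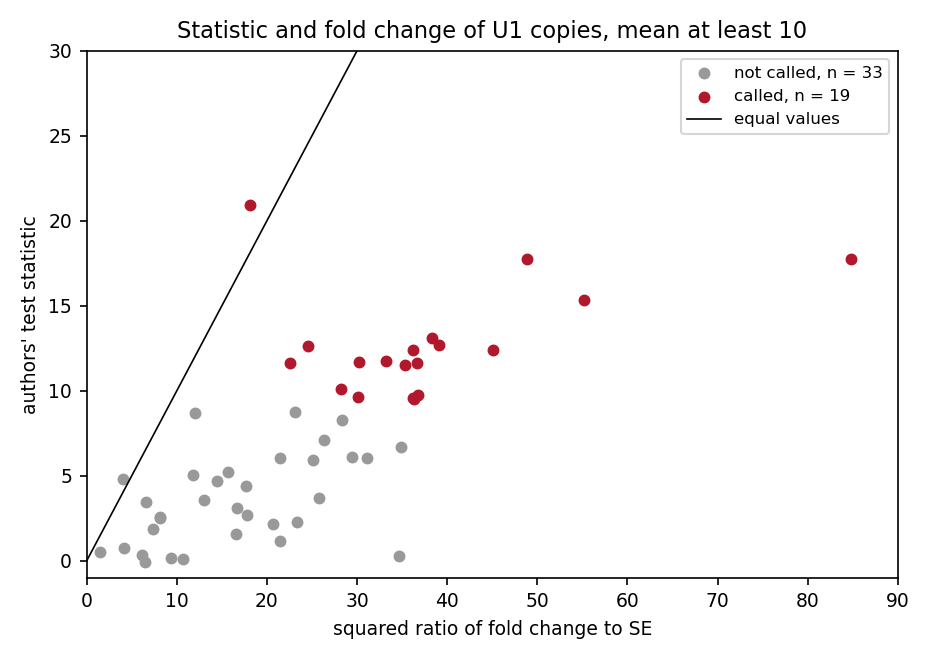
Authors' test statistic (vertical axis) against the square of fold change over standard error (horizontal axis) for the 52 U1 copies with a mean of at least 10; red copies are called and the line marks equal values. Of these copies 2 lie above the line and 50 below it.

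Beside the other snRNA families, U1 had the highest median in the immunoprecipitate among families with more than 1 copy at a mean of at least 10. For U1 that median was 3.90 over 52 copies, with quartiles at 3.27 and 4.12, per the authors' deposited table. U5, which aligns the exons for joining, came next at 3.53 over 7 copies, with quartiles at 3.23 and 3.61, and its most abundant copy stood at 3.53 (SE 0.60, adjusted p = 0.0523) per the authors' deposited table. A less abundant U5 copy, ENSMUST00000083099 with a mean of 7315, was called with a value of 3.75 on the log2 scale (SE 0.52, adjusted p = 0.0169) per the authors' deposited table, and it is named because it was called. U12 of the minor spliceosome had a median of 3.36 over 3 copies, and the single U4atac copy stood at 3.45 (SE 0.59, adjusted p = 0.0274) per the authors' deposited table. The ranges of U1, U5 and U12 overlap, and differences between families were not tested, since copies of a family are not independent.

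Further down, U4, the partner of U6 before activation, had a median of 2.33 over 9 copies with a mean of at least 10. These reached 2.66 at most, while a U4 copy with a mean of 8.98 stood at 8.39 (SE 2.13, adjusted p = 0.0600), per the authors' deposited table. U2, which binds the branch point, had 1.32 over 16 such copies, which also reached 2.66 at most, and 3.43 at most over all its copies, per the authors' deposited table. U11, which takes the place of U1 in the minor spliceosome, stood at 2.23 (SE 0.77, adjusted p = 0.220) for its most abundant copy per the authors' deposited table. All 6 U1 copies with a mean of at least 10000 lay above every U2, U4 and U11 copy with a mean of at least 10. Their means are unlike, since the highest mean was 1160 for U2 and 5740 for U4. Over all U1 copies with a mean of at least 10 the lowest value was 1.94, so the families overlap. U6 had a median of −0.80 over 24 such copies, with 10 of them above 0, and its most abundant copy stood at 0.03 (SE 1.03) per the authors' deposited table. The highest mean of a U6 copy was 203, so abundant U1 copies have no U6 copy of like mean to be set against. Over all copies the median of U1 exceeded that of U6 by 4.70. The U6 median over all copies was −0.82 and their median mean was 4.08, so this gap rests largely on scarce U6 copies.

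**Figure D4:**
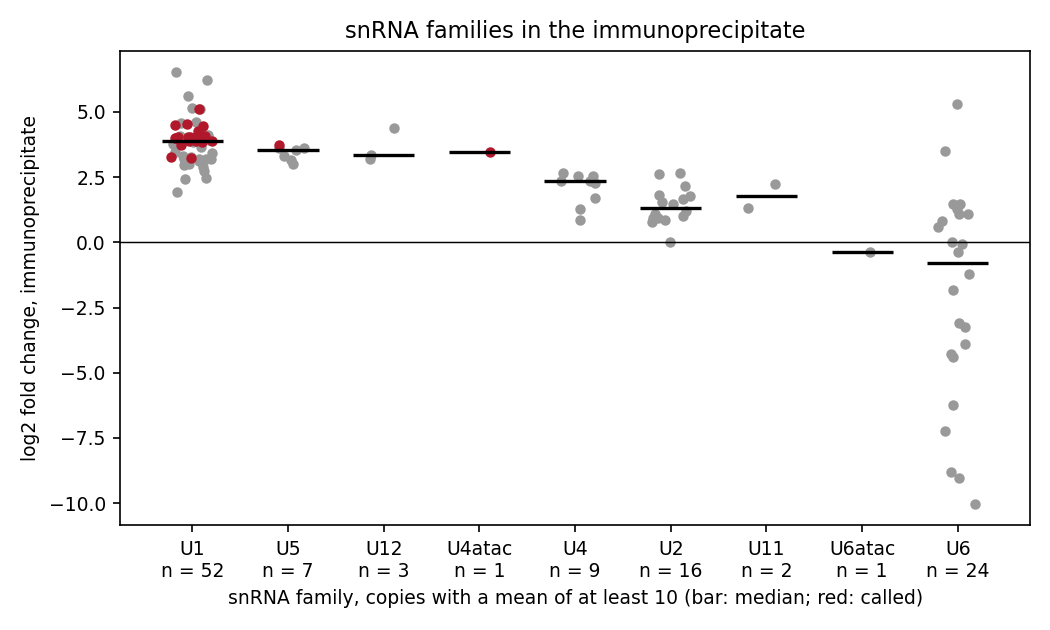
Log2 fold change in the immunoprecipitate (vertical axis) of each snRNA copy with a mean of at least 10, by family, with the median as a bar and called copies in red. U1 (52 copies, median 3.90) and U5 (7 copies, 3.53) lie highest, and the 24 U6 copies spread on both sides of 0.

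In the input no U1 copy among the rows passed the threshold, and the genes with U1 names of their own were not among them. Liver is a mixture of cells, so a difference in RNA per cell and one in cell numbers cannot be told apart here. None of 49 was called by the authors' adjusted p, where 0.0233% of all tested genes were called positive, and fold over standard error also called none. An unadjusted p under 0.05 was reached by 9 copies, all positive, against 1.23% of all tested genes. Yet the copies leaned to one side: 45 of 49 lay above 0, where 53.5% of all genes did, and their median log2 fold change was 0.30 against 0.02 for all genes, per the authors' deposited table. The median standard error was 0.29 over the 49 copies and 0.26 over the 21 with a mean under 10 per the authors' deposited table. It thus did not grow for scarce copies as it did in the immunoprecipitate, and sizes are not set against each other across the tables. Over all 12883 input genes it reached 0.30 at most, with means down to 1.09. The scarcest of the 49 copies, at a mean of 1.26, had the lowest standard error among them, at 0.19. All input log2 fold changes lay between −1.49 and 1.36. Whether they were shrunk towards 0 is not given and was not tested, so input sizes and intervals describe only the values as deposited. Copies could not be matched between the tables, because one is by transcript and the other by gene, and the difference between the tables was not tested for any copy.

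The most abundant input copies were annotated U1 genes outside the named loci. Gm25189 (chr2:117248271-117248434 on GRCm38, 164 bases, overlapping no other RefSeq gene) had a mean of 107 and a log2 fold change of 0.06 (SE 0.27) per the authors' deposited table. Gm24200 (chr9:94284496-94284652, 157 bases) had the same mean of 107 and stood at 0.50 (SE 0.26, p = 0.0576) per the authors' deposited table. Gm24405 (chr1:178636905-178637071), overlapping the kinesin gene Kif26b, stood at 0.47 (SE 0.28) with a mean of 91.2 per the authors' deposited table. Gm23680 and Gm23511 stood at 0.13 (SE 0.27) and 0.38 (SE 0.26) with means of 72.5 and 67.0 per the authors' deposited table. All 5 were positive, each interval held 0, and the highest upper bound among them was 2.02-fold. These bounds hold only for the values as deposited.

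A single copy stood apart in the input. Gm23240 (chr1:48462173-48462293 on GRCm38, 121 bases, a pseudogene in RefSeq) had a log2 fold change of 1.21 with SE 0.30 (p = 5.4e-05, adjusted p = 0.127) at a mean of 24.2 per the authors' deposited table. It did not pass the threshold, and it was singled out after its value was seen. The next lowest p was 0.00999, for the pseudogene copy Gm25005 at 0.75 (SE 0.29), per the authors' deposited table. The lowest value was that of Gm25630, at −0.17 (SE 0.30), per the authors' deposited table.

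RefSeq annotation split the input copies by kind. Of the 49 genes 47 had a RefSeq entry, on 18 chromosomes, and 33 of these were snRNA genes and 14 pseudogenes. The snRNA entries were 157 to 172 bases long with a median of 164, and the pseudogenes 121 to 177 bases with a median of 143.5. All 14 pseudogene copies were positive and had a median of 0.48, and 7 of them had an unadjusted p under 0.05, per the authors' deposited table. Among the 33 snRNA copies 30 lay above 0, the median was 0.28, and 2 had such a p, per the authors' deposited table. The ranges overlap (0.25 to 1.21 against −0.16 to 0.75), and this split was not tested. Median means of the kinds were alike, at 10.6 for pseudogenes and 11.1 for snRNA genes.

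Overlap with other genes was also described. Of the placed copies 18 overlapped another RefSeq gene, with a median of 0.38, and 29 did not, with a median of 0.28, per the authors' deposited table. A protein-coding gene overlapped 14 of them, among them Gm22126, which overlaps the transcription corepressor gene Cdyl, and Gm22126 stood at 0.67 (SE 0.27, p = 0.0137) per the authors' deposited table. Without strand in the counting, reads from an overlapping transcript and from the copy itself cannot be told apart, and the strand setting was not given in the sources used here. The genes with U1 names of their own in RefSeq, Rnu1a1 on chromosome 11 and Rnu1b1, Rnu1b2 and Rnu1b6 on chromosome 3, were not among the input rows analysed here.

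**Figure D5:**
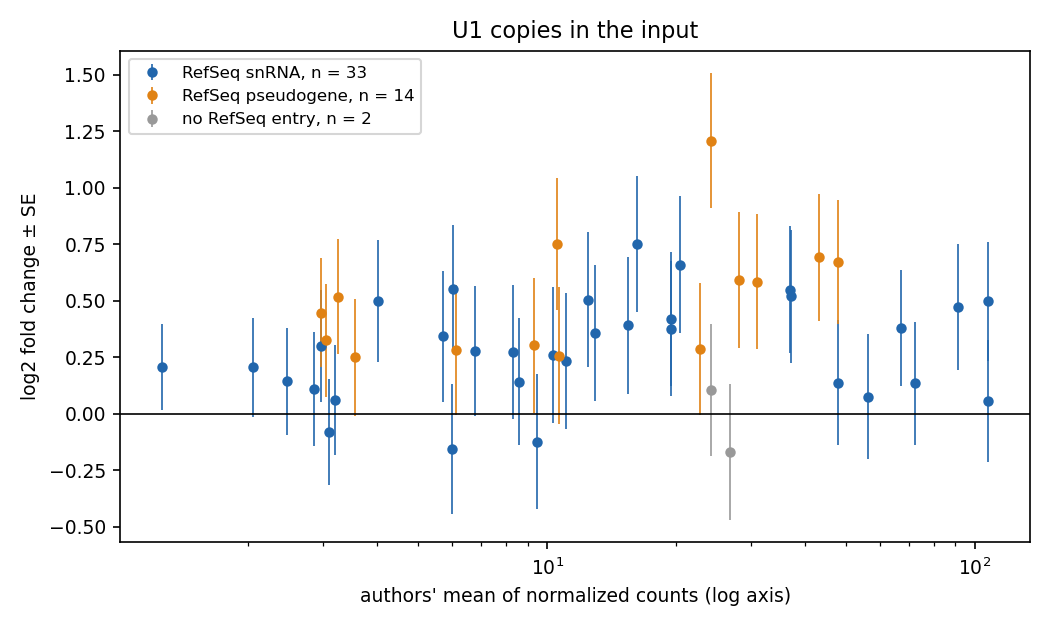
Log2 fold change (vertical axis, with SE bars) of each of the 49 U1 copies in the input against the authors' mean (horizontal log axis), coloured by RefSeq kind. All 14 pseudogene copies lie above 0, with Gm23240 highest at 1.21, and the 5 most abundant copies lie between 0.06 and 0.50.

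Other snRNA families were mixed in the input. Above 0 lay 9 of the 14 copies of U2 (median 0.23), 40 of the 55 copies of U6 (median 0.13), 6 of the 13 copies of U4 and 0 of the 2 copies of U5 (median −0.19), per the authors' deposited table. The single U11 gene, Rnu11, stood at −0.19 (SE 0.28) and the more abundant U12 gene, Rnu12, at −0.49 (SE 0.29) per the authors' deposited table. The other U12 gene, Gm25703, named after its value was seen, stood at 0.49 (SE 0.29) and the U6atac gene, Gm25541, at 0.32 (SE 0.30) per the authors' deposited table. No snRNA gene of the input was called, and these differences between families were not tested.

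Among the listed genes whose products make, assemble or bind U1, none was called in the input. Of all tested input genes 0.0389% were called in either direction, so a count of 0 in lists of this size is near the background. Of the proteins particular to the U1 particle, Snrpa stood at 0.54 (SE 0.30), Snrpc at 0.08 (SE 0.29) and Snrnp70 at −0.06 (SE 0.26) per the authors' deposited table, and 0 of 3 were called. Of the Sm ring 0 of 6 measured genes were called, with Snrpf at −0.31 (SE 0.27) and Snrpd3 at 0.28 (SE 0.28) per the authors' deposited table. Among 11 genes of Sm assembly and cap conversion 0 were called, and Smn1, the core of the assembly complex, stood at 0.40 (SE 0.30) per the authors' deposited table.

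Upstream of assembly, beside the same background of 0.0389%, 0 of 10 genes of snRNA transcription were called, their median being 0.04, with Ell of the elongation machinery at −0.36 (SE 0.29) per the authors' deposited table. Integrator cuts the 3' end of nascent snRNA, and 0 of its 16 listed genes were called. Ints2 stood at 0.65 (SE 0.29, p = 0.0246) and Ints13 at 0.54 (SE 0.28, p = 0.0491) per the authors' deposited table, with the median of the list at 0.06. Export and import genes had 0 of 6 called and U1 partners at the 5' splice site 0 of 7, with medians of 0.07 and 0.06 per the authors' deposited table.

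Of 8 genes of adenosine methylation 1 was called, Fto itself, against 0.0389% of all tested genes called in either direction. Pcif1, the methyltransferase of m6Am in mRNA, stood at −0.27 (SE 0.28), Mettl16 at 0.23 (SE 0.29) and Mettl4, which methylates U2, at 0.22 (SE 0.29) per the authors' deposited table. None of these 8 genes was among the immunoprecipitate features. The pathway genes that were, such as Snrpa, Snrnp70 and Snapc3, had means of 6.80 or less there, and none of them had an adjusted p, so none could be called. Markers of other liver cell types were not called in the input either: 0 of 8 for macrophages, 0 of 6 for endothelial cells, 0 of 6 for stellate cells, 0 of 5 for cholangiocytes, 0 of 4 for lymphocytes and, for erythroid cells and neutrophils, 0 of the 4 with an adjusted p among 5 measured. Alas2, the first enzyme of heme synthesis in red cell precursors, was the lowest of these in p, at −0.99 (SE 0.29, p = 4.92e-04, adjusted p = 0.443) in the input per the authors' deposited table. The same list went both ways in the input. S100a9 stood at 0.52 (SE 0.26) and S100a8 at 0.14 (SE 0.14) per the authors' deposited table. Hba-a1 stood at −0.48 (SE 0.30) and Hbb-bs at −0.32 (SE 0.26) per the authors' deposited table. In the immunoprecipitate Alas2 stood at −8.78 (SE 2.71, adjusted p = 0.187) and the globin gene Hba-a1 at −23.04 (SE 3.44, adjusted p = 0.204) per the authors' deposited table. Only these 2 genes of the list were measured there. The part of these markers in the U1 values was not tested.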

How the data were processed

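The deposited tables are the authors' comparisons, 1 for the immunoprecipitate by transcript and 1 for the input by gene. Per the file headers, they hold the authors' mean signal (normalized counts averaged over libraries), a log2 fold change with its standard error, a test statistic (a score, per the file headers) and the authors' p-value with its adjusted p-value. The submitters' processing notes name STAR, bedtools 2.25.0, DESeq2 and the build mm10 without saying what each did. Not given in the sources used here are the counting rules, strand, model, filters and library sizes, so depth per library is unknown. Replicates may or may not be separate animals, and p-values may measure technical spread.

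Calls are the authors' adjusted p under 0.05. In the input the statistic equalled fold over standard error (tolerance 1e-06). Intervals are 95% normal intervals from the deposited standard error. Wald p-values and Benjamini-Hochberg adjustment over whole tables were computed with scipy 1.17.1 and checked on simulated data. Input symbols came from gene identifiers (49 of 49 matched), with positions from RefSeq on GRCm38.p6 by symbol; U1 transcripts could not be placed. A written rule named copies with the 10 highest means in the immunoprecipitate and the 5 highest in the input. It also took in the 3 highest and 3 lowest fold changes at a mean of at least 10. The scarcest called copy and the most abundant uncalled one were part of it too. List genes were those called and otherwise up to 4 per list with the lowest p. Other copies were named outside this rule, after their values were seen. Among them are ENSMUST00000082660, ENSMUST00000082578, ENSMUST00000082773, ENSMUST00000083111 and ENSMUST00000083084, and in the input Gm23240, Gm25005, Gm25630 and Gm22126. The members, lists and rules were chosen with earlier results of these data known.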

Additional observations from a re-analysis of the deposited data

How the results depend on the processing

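The count of called U1 copies in the immunoprecipitate depended on the p-value used: it was 19 by the authors' adjusted p, 4 with their p adjusted over all deposited features, 49 by fold over standard error and 53 by that ratio after centring. Over all features 0.895% were called positive by the authors' adjusted p, and 2.81% positive and 8.01% negative by fold over standard error. For the counts of 4 and 53 no share over all features is given here, so they are not read against a background. The cause of the difference between the counts was not tested. A minimum mean of 10, one of 100 and 1 copy per near-identical group left 19, 15 and 16. The median U1 fold change stayed between 3.86 and 4.70 under the alternatives tried, the higher end after centring on the median feature at −0.82. The input count stayed at 0 and its median between 0.28 and 0.40. The excess over U6 stayed between 3.90 and 5.14. Its low end came at a mean of at least 100, where U6 rests on few copies, the highest at means of 203 and 187. Centring moves both families alike, so it could not change this excess and is no check of it. No paired analysis was possible because the tables hold no values of single replicates, and for the same reason no replicate could be left out. Low means limit the scarce copies.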
